A study of Homo sapiens with 9 samples.

Results

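The genes described here are the matrix metalloproteinases (MMPs), the related ADAM and ADAMTS metalloproteinases and their tissue inhibitors, the TIMPs, in 3 genotypes of the human breast epithelial line MCF-10A. They were taken by name from a list of 42 symbols, with 17 MMP, 4 TIMP, 7 ADAM and 14 ADAMTS genes, and all 42 were found among the 60609 genes counted. MMPs are zinc-dependent endopeptidases that cut collagens, laminins, fibronectin and other matrix proteins, and most are secreted as inactive proenzymes while the membrane-type members stay at the cell surface. ADAMs are membrane-anchored and release the outer parts of surface proteins such as growth factor precursors, and ADAMTS enzymes are secreted proteases that process procollagens and cut large proteoglycans. TIMPs bind the active site of MMPs, and TIMP3 also acts on some ADAM and ADAMTS enzymes. A TIMP2 bound to MMP14 is also the receptor for pro-MMP2 at the surface of many cells. In breast epithelium these proteins are known for their part in the turnover of the basement membrane.

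MCF-10A is a non-tumorigenic, established line. The parental cells (WT) were set against knock-in cells made earlier from the same line, which carry the helical-domain change E545K or the kinase-domain change H1047R in PIK3CA, the gene of the catalytic subunit p110-alpha of PI 3-kinase, with 3 libraries for each of the 3 genotypes. For maintenance, parental cells had EGF (epidermal growth factor) at 20 ng/ml and knock-in cells at 0 ng/ml, otherwise in the same medium with 5% horse serum. For the last 24 h every genotype was in phenol red-free assay medium with 1% stripped serum and 0.2 ng/ml EGF. Insulin (10 µg/ml), hydrocortisone (0.5 µg/ml) and cholera toxin (100 ng/ml) were present throughout in all 3 genotypes. The maintenance without EGF and the knock-in therefore cannot be told apart in comparisons with WT. The labels do not say how many clones stand for each knock-in or that the replicates were separate cultures, and p-values therefore cover no more than the spread among the libraries at hand, part or all of which may be technical. Gene counts cannot show a single-base knock-in, so the genotype labels were not checked by it.

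Total counts were 95091894 to 136132315 in WT, 95533991 to 134245702 in E545K and 377093507 to 605972919 in H1047R libraries. The H1047R libraries came in a separate table from the others. Their biological coefficient of variation was 0.219, while WT had 0.0328 and E545K 0.0285. Table, depth and the H1047R genotype cannot be told apart. All 5 basal epithelial markers (KRT5, KRT14, KRT17, TP63 and ITGA6) were above 1 CPM (counts relative to library size) in every library, with a summed level of 22104 to 29061 CPM. The 3 luminal keratins (KRT8, KRT18 and KRT19) summed to 1354 to 1440 CPM in WT, 501 to 511 in E545K and 366 to 466 in H1047R. Of 8 fibroblast markers, COL1A1 and DCN were above 1 CPM and the other 6 were below it in all 9 libraries. Of 4 endothelial markers, KDR was above 1 CPM, with means of 8.66, 10.7 and 22.4 CPM in WT, E545K and H1047R, and the list summed to 8.41 to 10.2, 10.4 to 12.1 and 22 to 23.6 CPM. Of 6 leukocyte markers, CD68 (10.9, 7.04 and 5.40 CPM), CD14 (5.15, 5.03 and 2.53) and, in H1047R, ITGAM (1.5) were above 1 CPM, and the list summed to 16.3 to 17.0, 12.4 to 13.0 and 8.58 to 10.1 CPM. The markers PTPRC, CD3E, PECAM1 and CDH5 reached at most 0.217 CPM in a library. The endothelial marker VWF was higher, with means of 0.728, 0.353 and 0.195 CPM in WT, E545K and H1047R. In such bulk samples, fewer cells of a kind and less RNA per cell cannot be told apart.

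Promoter sequences were set beside the expression values for some of the genes with the largest changes and some of those that fell together. The RefSeq table (GRCh38.p14) held promoters for 23 of the 42 genes. MMP7 and MMP10 are shown because both carry the letters of an AP-1 motif (TGANTCA, searched on both strands, in capitals) 67 bases before the start. Each line gives the 100 bases that precede the RefSeq start of transcription, read 5′ to 3′ on the gene's strand.
MMP7 (chr11:102530748-102530847, minus strand): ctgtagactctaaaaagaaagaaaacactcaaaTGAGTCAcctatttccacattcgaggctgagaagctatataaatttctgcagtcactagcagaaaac
MMP10 (chr11:102780629-102780728, minus strand): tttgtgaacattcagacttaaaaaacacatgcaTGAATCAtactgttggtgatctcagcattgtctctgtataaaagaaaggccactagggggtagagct
Among 24 promoters of these genes (ADAMTS10 has 2), 3 held TGANTCA in the 250 bases before the start, with ADAMTS12 as the third at 84 bases, against 6.57% of 35116 promoters in the table. A further set shows MMP14, TIMP1 and TIMP3, which were lower in both knock-in genotypes, with ADAM19 and ADAMTS14. ADAM19 and ADAMTS14 had the largest fall and the largest rise in H1047R against WT among the tested genes of the 42. Capitals here mark GGGCGG on either strand (CCGCCC when on the other), the core of the motif bound by SP factors, a motif chosen after the expression values were seen.
MMP14 (chr14:22836485-22836584, plus strand): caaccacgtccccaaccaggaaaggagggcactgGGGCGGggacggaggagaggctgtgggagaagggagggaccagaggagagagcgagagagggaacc
TIMP1 (chrX:47582336-47582435, plus strand): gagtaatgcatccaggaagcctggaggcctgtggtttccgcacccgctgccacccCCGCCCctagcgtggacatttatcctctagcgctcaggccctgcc
TIMP3 (chr22:32801605-32801704, plus strand): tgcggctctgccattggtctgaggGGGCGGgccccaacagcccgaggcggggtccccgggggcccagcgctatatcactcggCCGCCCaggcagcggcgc
ADAM19 (chr5:157575776-157575875, minus strand): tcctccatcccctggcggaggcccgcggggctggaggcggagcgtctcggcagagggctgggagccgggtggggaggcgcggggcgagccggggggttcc
ADAMTS14 (chr10:70672406-70672505, plus strand): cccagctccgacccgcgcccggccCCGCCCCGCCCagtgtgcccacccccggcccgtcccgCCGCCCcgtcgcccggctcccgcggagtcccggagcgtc
GGGCGG stood in 19 of the 24 promoters and in 42.6% of all in the table. None of the 5 held TGANTCA, and ADAM19 held neither run of letters in its 250 bases. ADAMTS6, which also fell in both knock-in genotypes and is not shown, held neither run as well. A match describes letters in a window and not a bound factor.

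A few of these genes dominated in RNA level, and 16 of the 42 had means under 1 CPM in every genotype. Of the 42 genes, 26 reached a mean of 1 CPM in a genotype and 7 reached 100 CPM in WT (levels are CPM of the library size after TMM scaling). Per kilobase of exon (RPKM, used only to compare levels between genes), TIMP3 was the highest in all 3 genotypes, at 174 RPKM in WT, 116 in E545K and 103 in H1047R. In WT it was followed by TIMP1 at 138 RPKM, MMP14 at 104, ADAM15 at 88.4, TIMP2 at 42.4 and ADAM9 at 33.4. MMP14 together with TIMP1, TIMP2 and TIMP3 made up 73.4% ± 0.0893 of the summed RPKM of all 42 genes in WT, 66.2% ± 0.0186 in E545K and 61.4% ± 0.857 in H1047R (mean ± SD of 3 libraries). ADAM19 went from rank 11 in WT to 13 in E545K and 21 in H1047R, and MMP2 from 18 to 26 and 27. In the other direction ADAMTS14 went from rank 24 to 18 and 14, and MMP7 from 23 to 21 and 15.

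**Figure D1:**
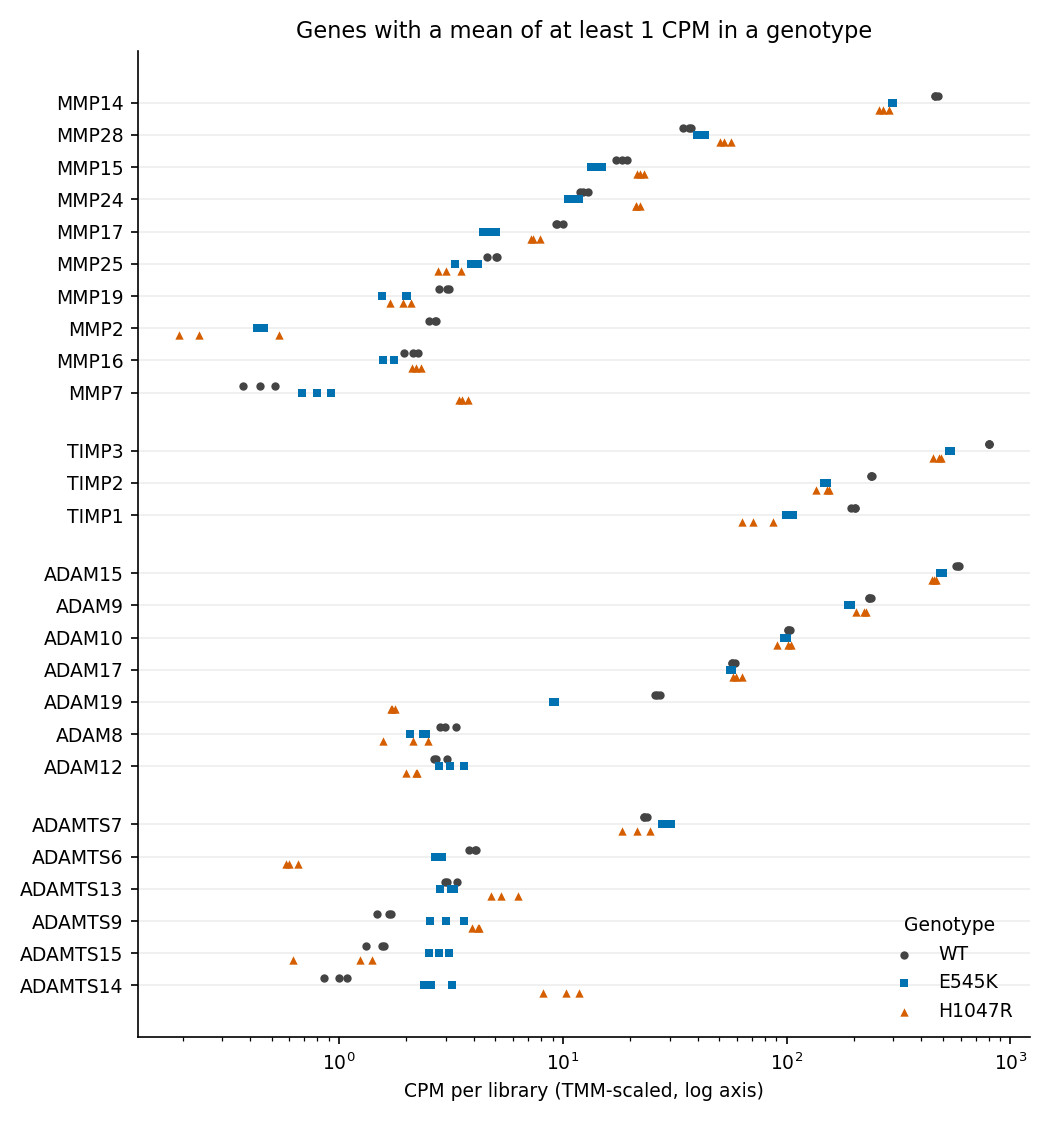
CPM of each library on a log axis for the 26 genes with a mean of at least 1 CPM in a genotype, grouped as MMP, TIMP, ADAM and ADAMTS genes, with 3 points per genotype. TIMP3, ADAM15 and MMP14 stand at the right, and the points of WT, E545K and H1047R are furthest apart for ADAM19, ADAMTS14, MMP2 and MMP7.

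A low-count filter passed 36 of the 42 genes, and a call was an adjusted p under 0.05 from edgeR's quasi-likelihood test over 26412 genes. In E545K against WT, 6 of the 36 rose and 14 fell, where 17.7% of all tested genes rose and 18.9% fell (36.6% called). In H1047R against WT, 8 rose and 17 fell, where 27.4% of all tested genes rose and 28.1% fell (55.5%). In H1047R against E545K, 11 rose and 12 fell, against 25.9% and 27.3% of all tested genes (53.2%). The median log2 fold change of the 36 genes was −0.31, −0.37 and −0.14 in these 3 comparisons, beside 0.00, 0.02 and 0.02 over all tested genes. With scaling by library totals only, the split in H1047R against E545K was 9 higher and 16 lower. Both comparisons with WT share the WT libraries. The test pooled the spread over all 9 libraries, which was widest in H1047R. Its SEs and p-values can thus be too small for H1047R and too large for E545K against WT. With only the compared genotypes in the fit, called genes of the list numbered 24 of 33, 25 of 36 and 19 of 36 in the 3 comparisons. Over all genes these were 12585 of 23687, 14050 of 28472 and 13012 of 28546.

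Changes of at least 2-fold were fewer, and their balance in E545K depended on the scaling. In E545K against WT 1 gene rose and 4 fell by that much, where 4.52% of all tested genes rose and 2.58% fell (7.10% in all). With scaling by library totals only, 3 rose and 2 fell there. In H1047R against WT 4 rose and 7 fell, where 10.0% and 7.39% of all did (17.4%). In H1047R against E545K 3 rose and 5 fell, where 7.74% and 7.24% of all did (15.0%). The E545K rise was ADAMTS14, and the falls were MMP2, MMP17, ADAM19 and ADAMTS12. In H1047R the rises against WT were MMP7, MMP13, ADAMTS9 and ADAMTS14. The falls there were MMP2, TIMP1, ADAM19, ADAMTS4, ADAMTS6, ADAMTS12 and ADAMTS16. A low-level gene could pass the filter through the genotype where it was high, so these counts describe the tested genes and not all 42.

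**Figure D2:**
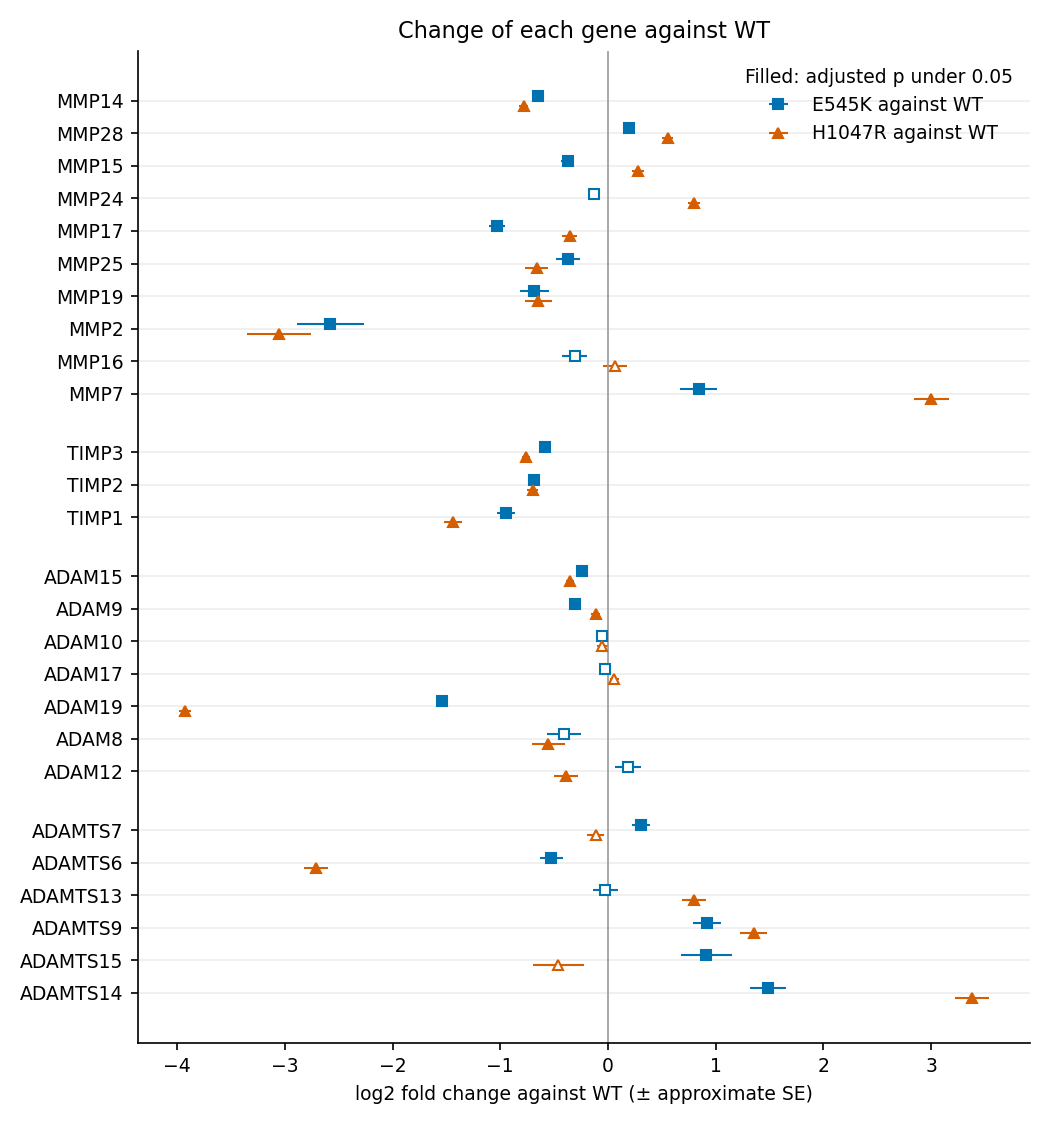
Log2 fold change against WT with approximate SE for the 26 genes at 1 CPM or more, squares for E545K and triangles for H1047R, filled where the adjusted p was under 0.05. The TIMP genes lie to the left of 0 for both genotypes, and MMP15 has its 2 filled points on opposite sides of 0.

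The 3 abundant inhibitors were lower in both knock-in genotypes. TIMP1, a secreted inhibitor of most MMPs (ENSG00000102265.12, hg38 chromosome X, 47582408 to 47586789), was at 202, 201 and 195 CPM in the WT libraries, 99.1, 107 and 104 in the E545K and 86.9, 70.9 and 62.9 in the H1047R libraries. No library of one genotype overlapped another, and the H1047R libraries were spread most widely. TIMP1 fell by 0.95 ± 0.08 (log2, ± approximate SE, adjusted p = 4.09e-07) in E545K, and by 1.44 ± 0.08 in H1047R (adjusted p = 1.57e-09). It was also lower in H1047R than in E545K, by −0.49 ± 0.08 (adjusted p = 0.000157). The TIMP1 promoter printed above holds a CCGCCC run in the 100 bases shown.

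TIMP2, the inhibitor that links pro-MMP2 to MMP14 (chromosome 17, 78852977 to 78925387), had 238, 238 and 242 CPM in the WT libraries, 147, 148 and 151 in the E545K and 155, 151 and 135 in the H1047R libraries. Every WT library was above every knock-in library, and the knock-in genotypes overlapped. TIMP2 fell by 0.69 ± 0.05 (adjusted p = 2.87e-08) in E545K and by 0.70 ± 0.05 (adjusted p = 8.17e-09) in H1047R. The difference between the knock-in genotypes was −0.01 ± 0.05 (adjusted p = 0.834), and it was called with scaling by library totals only (−0.15, adjusted p = 0.000715). Other annotated genes share 10.0% of the TIMP2 exon bases, and their reads cannot be told apart from those of TIMP2.

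TIMP3, an inhibitor that binds to the matrix and also acts on ADAM17 and aggrecan-cutting ADAMTS enzymes (chromosome 22, 32801701 to 32863043), had 799.5, 804 and 802 CPM in the WT libraries, 541, 532 and 535 in the E545K and 451, 488 and 478 in the H1047R libraries. The 3 genotypes did not overlap. TIMP3 fell by 0.58 ± 0.04 (adjusted p = 1.62e-08) in E545K and by 0.76 ± 0.04 (adjusted p = 2.81e-10) in H1047R, and was −0.18 ± 0.04 lower in H1047R than in E545K (adjusted p = 0.000899). TIMP4, the fourth inhibitor, had 0 to 4 counts per library in WT and E545K and 0 in the 3 H1047R libraries, which allows up to 0.00495 to 0.00796 CPM there (3 counts, counting error only), and it was not tested. Summed over TIMP1, TIMP2 and TIMP3, the level was 354 ± 2.32 RPKM in WT, 214 ± 1.93 in E545K and 179.6 ± 7.36 in H1047R (mean ± SD of 3 libraries). The ratio of TIMP1 to TIMP3 in RPKM was 0.791 ± 0.0165 in WT, 0.613 ± 0.0281 in E545K and 0.499 ± 0.102 in H1047R. The luminal keratins KRT8 and KRT18 also fell in both comparisons with WT. The third, KRT19, was 2.46 to 3.06 CPM in H1047R and was not called there, with WT at 9.87, 1.61 and 1.68 CPM. The part of these markers in the TIMP values was not tested.

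**Figure D3:**
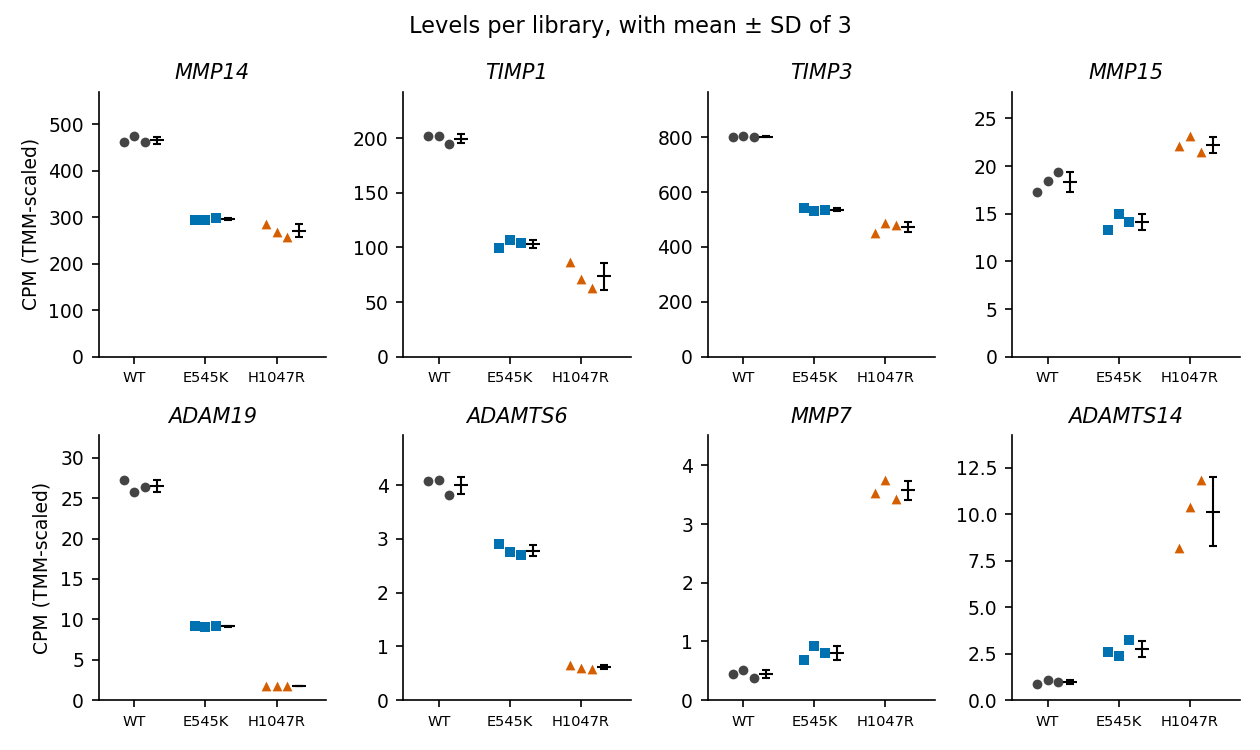
CPM of each library on linear axes from 0 for 8 genes, with the mean and SD of 3 libraries beside the points of each genotype. TIMP1 and ADAM19 step down from WT to E545K to H1047R, ADAMTS14 steps up, and MMP15 is lowest in E545K and highest in H1047R.

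The 6 membrane-type MMPs are described by member, since 6 genes are too few to weigh their counts against the shares of all tested genes. In E545K none rose and 4 fell, in H1047R 2 rose and 3 fell against WT, and in H1047R against E545K 4 rose and 2 fell, beside 17.7% and 18.9%, 27.4% and 28.1%, and 25.9% and 27.3% of all tested genes. Their median log2 fold changes were −0.37, −0.14 and 0.52. Per-library values of MMP14 and MMP15 are given because of their abundance and their opposite calls, a choice made after the values were seen.

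MMP14 (MT1-MMP, chromosome 14, 22836560 to 22849027), the collagenase and pro-MMP2 activator of the cell surface, had 461, 475 and 461 CPM in the WT libraries, 294, 295 and 299 in the E545K and 286, 269 and 258 in the H1047R libraries. It was above both knock-in genotypes in every WT library. MMP14 fell by 0.65 ± 0.04 (adjusted p = 1.26e-08) in E545K and by 0.78 ± 0.04 (adjusted p = 6.17e-10) in H1047R. The difference between the knock-in genotypes was −0.13 ± 0.04 (adjusted p = 0.0181). It was no longer called without any single E545K library or without H1047R replicate 2 (adjusted p = 0.0524 to 0.0835), nor without a filter or with the compared genotypes alone, and in a fit of protein-coding genes only the value was −0.06. MMP14 made up 81.5% ± 0.426 of the summed RPKM of the 17 MMP genes in WT, 75.0% ± 0.229 in E545K and 65.5% ± 1.83 in H1047R. The ratio of TIMP2 to MMP14 in RPKM was 0.406 ± 0.00938 in WT, 0.397 ± 0.00217 in E545K and 0.430 ± 0.0140 in H1047R. The H1047R libraries (0.416 to 0.444) lay just above those of WT (0.396 to 0.415), and E545K (0.395 to 0.398) overlapped with WT.

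MMP15 (MT2-MMP) had 17.3, 18.4 and 19.3 CPM in the WT libraries, 13.3, 14.9 and 14.2 in the E545K and 22.1, 23.1 and 21.4 in the H1047R libraries. The genotypes did not overlap, with E545K below WT and H1047R above it. MMP15 fell by 0.38 ± 0.06 (adjusted p = 0.000156) in E545K and rose by 0.28 ± 0.06 (adjusted p = 0.000763) in H1047R. The direct difference of H1047R from E545K was 0.65 ± 0.06 (adjusted p = 2.32e-07).

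MMP17 (MT4-MMP), which is held in the membrane by a lipid anchor, had 9.37, 9.29 and 10.1 CPM in the WT libraries, 4.41, 4.69 and 5.02 in the E545K and 7.34, 7.21 and 7.93 in the H1047R libraries. The 3 genotypes did not overlap, and E545K was the lowest. MMP17 fell by 1.03 ± 0.07 (adjusted p = 4.68e-08) in E545K and by 0.35 ± 0.07 (adjusted p = 0.000517) in H1047R, and H1047R was above E545K by 0.67 ± 0.07 (adjusted p = 1.69e-06). MMP24 (MT5-MMP) was at 12.4 ± 0.489 CPM in WT, 11.3 ± 0.626 in E545K and 21.5 ± 0.559 in H1047R, and it rose by 0.80 ± 0.06 (adjusted p = 1.02e-08) in H1047R. MMP24 was also higher in H1047R than in E545K, by 0.93 ± 0.06 (adjusted p = 2.78e-09). Its change in E545K was −0.13 ± 0.06 (adjusted p = 0.0931, and 0.0487 with the compared genotypes alone), and 22.1% of its exon bases are shared with other annotated genes, so its counts are uncertain to that extent.

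MMP25 (MT6-MMP), the other lipid-anchored member, was at 4.90 ± 0.270, 3.80 ± 0.447 and 3.10 ± 0.381 CPM in WT, E545K and H1047R. It fell by 0.66 ± 0.11 (adjusted p = 0.000108) in H1047R and by 0.37 ± 0.11 (adjusted p = 0.0178) in E545K, with 34.2% of its exon bases shared. The E545K call was lost without WT replicate 1 or 2 or without E545K replicate 1 (adjusted p = 0.0563 to 0.0934), and with library totals only (−0.28, adjusted p = 0.0876). The H1047R value was below that of E545K by −0.29 ± 0.11 (adjusted p = 0.0390), a call lost without WT replicate 2, E545K replicates 2 or 3 or H1047R replicates 1 or 2 (adjusted p = 0.0515 to 0.175), and also with upper-quartile scaling, another filter, the compared genotypes alone or protein-coding genes only. MMP16 (MT3-MMP) was at 2.12 ± 0.159, 1.70 ± 0.111 and 2.21 ± 0.102 CPM. H1047R was above E545K by 0.38 ± 0.11 (adjusted p = 0.0119, and 0.0548 without E545K replicate 3 and 0.103 with library totals only), and the change of E545K against WT was −0.31 ± 0.12 (adjusted p = 0.0557, and 0.0479 without WT replicate 1).

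Among the secreted MMPs, the gelatinase MMP2 and the matrilysin MMP7 went in opposite directions. MMP2, which cuts denatured collagen and type IV collagen (chromosome 16, 55389700 to 55506691), had 2.52, 2.71 and 2.69 CPM in the WT libraries, 0.434, 0.463 and 0.428 in the E545K and 0.541, 0.192 and 0.238 in the H1047R libraries. Every WT library was above every knock-in library, with H1047R replicate 1 above the E545K libraries and the other 2 below them. MMP2 fell by 2.58 ± 0.31 (adjusted p = 1.09e-05) in E545K and by 3.05 ± 0.30 (adjusted p = 4.96e-07) in H1047R. The difference between the knock-in genotypes was −0.48 ± 0.31 (adjusted p = 0.222), and −1.04 without H1047R replicate 1 (adjusted p = 0.000245). Of the 2 fibroblast markers above 1 CPM, DCN fell by 2.60 ± 0.09 and 1.85 ± 0.08 in the same comparisons and COL1A1 rose by 0.33 ± 0.06 and 0.49 ± 0.06. The 8 fibroblast markers summed to 93.9 to 97.4 CPM in WT, 67.2 to 70.3 in E545K and 69.6 to 86.0 in H1047R, with LUM at 0 in the 3 H1047R libraries and WT replicate 3, and their part in the MMP2 result was not tested.

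MMP7, a small MMP without the hemopexin domain that many epithelia make (chromosome 11, 102520508 to 102530750), had 0.446, 0.518 and 0.371 CPM in the WT libraries, 0.687, 0.925 and 0.797 in the E545K and 3.53, 3.76 and 3.43 in the H1047R libraries. The 3 genotypes did not overlap. MMP7 rose by 0.84 ± 0.17 (adjusted p = 0.00120) in E545K and by 3.0 ± 0.16 (adjusted p = 4.95e-10) in H1047R, and H1047R was above E545K by 2.16 ± 0.15 (adjusted p = 1.16e-08). The 36 tested genes within 5 Mb of MMP7 had a median log2 fold change of 0.15 in E545K and 0.33 in H1047R against WT.

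MMP7 is one of 6 listed MMP genes that lie together on chromosome 11. MMP13 (collagenase-3) was at 0.167 ± 0.0845 CPM in WT, 0.0938 ± 0.0357 in E545K and 0.595 ± 0.0855 in H1047R. It rose by 1.83 ± 0.37 (adjusted p = 0.000612) in H1047R against WT, and H1047R was above E545K by 2.64 ± 0.39 (adjusted p = 4.46e-05). MMP1, the interstitial collagenase, did not pass the filter, with 1, 3 and 1 counts in the WT libraries, 9, 0 and 5 in the E545K and 24, 2 and 20 in the H1047R libraries. The stromelysins MMP3 and MMP10 had 0 to 16 counts per library, and the macrophage elastase MMP12 had 0 to 4 and none in H1047R. MMP10 therefore shares the motif letters at the same distance as MMP7 but reached at most 16 counts, against 1227 or more counts of MMP7 in each H1047R library.

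**Figure D4:**
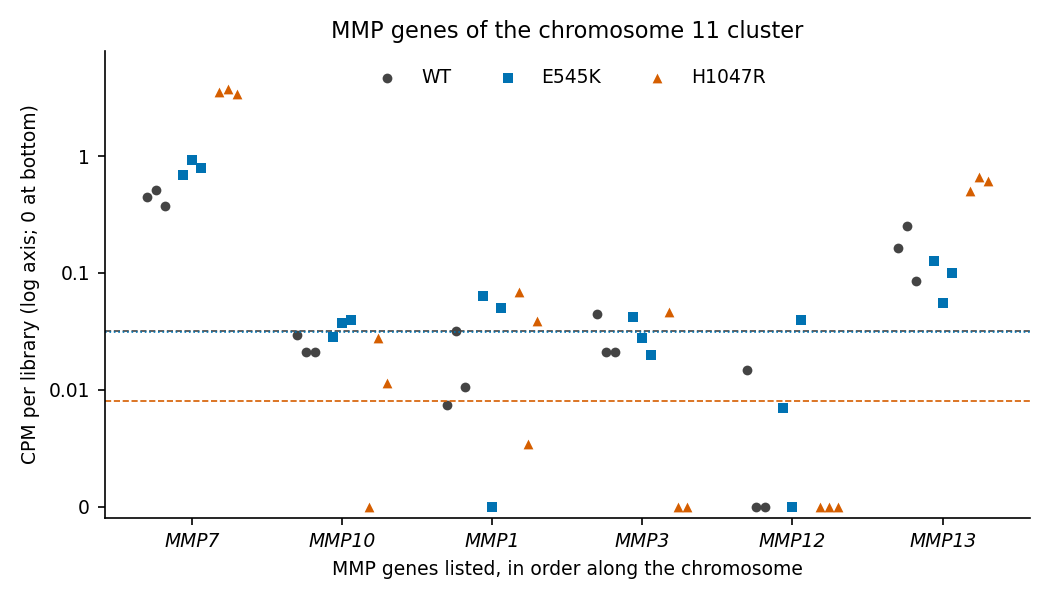
CPM of each library on a log axis, with 0 drawn at the bottom, for 6 MMP genes of chromosome 11 in their order along it, with lines at the highest level that a count of 0 allows in each genotype. MMP7 in H1047R is the only set of points above 3 CPM, and the points of MMP1, MMP3, MMP10 and MMP12 all lie below 0.1 CPM.

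The remaining secreted MMPs were MMP28, MMP19, MMP9 and MMP11. MMP28 (epilysin), which keratinocytes and other epithelia make, was at 36.2 ± 1.52 CPM in WT, 41.4 ± 1.5 in E545K and 53.1 ± 3.05 in H1047R. It rose by 0.20 ± 0.05 (adjusted p = 0.00750) in E545K, a call lost without WT replicate 1 (adjusted p = 0.0580) or E545K replicate 3 (0.0503), and by 0.55 ± 0.05 (adjusted p = 2.28e-07) in H1047R. MMP28 was also higher in H1047R than in E545K, by 0.36 ± 0.05 (adjusted p = 2.54e-05). MMP19 was at 2.98 ± 0.156, 1.85 ± 0.259 and 1.90 ± 0.208 CPM in WT, E545K and H1047R. It fell by 0.68 ± 0.13 (adjusted p = 0.000859) in E545K and by 0.65 ± 0.13 (adjusted p = 0.000501) in H1047R. Other annotated genes share 17.4% of the MMP19 exon bases and 18.4% of those of MMP9. MMP9 (gelatinase B) and MMP11 (stromelysin-3) had means of 0.0529 to 0.235 CPM, and neither was called in any comparison.

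MMP2 fell more in E545K, but ADAM19 had the largest fall in H1047R against WT among the 36 tested MMP, TIMP, ADAM and ADAMTS genes. This membrane protease, known for shedding neuregulin (ENSG00000135074.15, chromosome 5, 157395534 to 157575775), had 27.3, 25.8 and 26.4 CPM in the WT libraries, 9.15, 9.03 and 9.21 in the E545K and 1.78, 1.73 and 1.71 in the H1047R libraries. The genotypes were far apart, and within each the libraries lay close together. ADAM19 fell by 1.54 ± 0.05 (adjusted p = 1.68e-11) in E545K and by 3.93 ± 0.06 (adjusted p = 7.00e-16) in H1047R, with −2.39 ± 0.06 (adjusted p = 1.51e-13) between the knock-in genotypes. In linear terms that was 2.90-fold lower in E545K and 15.2-fold lower in H1047R. The 52 tested genes within 5 Mb of it had a median log2 fold change of −0.01 and −0.10 in those comparisons.

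The main sheddases ADAM10 and ADAM17 were not called in any comparison. ADAM10, which cuts NOTCH receptors and cadherins, was at 102 ± 1.14, 98.8 ± 1.44 and 98.8 ± 7.13 CPM in WT, E545K and H1047R. ADAM17, which releases tumour necrosis factor and several EGF receptor ligands, was at 57.6 ± 1.11, 56.4 ± 0.423 and 60.0 ± 2.63 CPM. Other annotated genes share 14.4% of the ADAM17 exon bases. The log2 fold changes of ADAM10 and ADAM17 lay between −0.05 and 0.09 with SEs of 0.04 to 0.05, and for both some signs flipped with the scaling. Under library totals only, ADAM10 was called in H1047R at −0.10 against WT (adjusted p = 0.0213) and at −0.14 against E545K (adjusted p = 0.00239). The ADAM17 differences of H1047R were called without H1047R replicate 3 (0.09 against WT with adjusted p = 0.0371, and 0.12 against E545K with adjusted p = 0.00816), and also with upper-quartile scaling, the stricter filter or protein-coding genes only.

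ADAM15 and ADAM9, the most abundant ADAMs, changed by small amounts. ADAM15 was at 582 ± 8.99 CPM in WT, and it fell by 0.24 ± 0.04 (adjusted p = 8.11e-05) in E545K and by 0.35 ± 0.04 (adjusted p = 8.22e-07) in H1047R. The difference of −0.11 ± 0.04 between the knock-in genotypes (adjusted p = 0.0197) was lost without E545K replicate 2 (0.109) or 3 (0.0821), and also with upper-quartile scaling, no filter, the compared genotypes alone or protein-coding genes only. ADAM9 was at 235 ± 2.97 CPM in WT, 190.3 ± 3.14 in E545K and 217 ± 12 in H1047R, and it fell by 0.31 ± 0.04 (adjusted p = 4.86e-05) in E545K. Its change in H1047R, −0.11 ± 0.04 (adjusted p = 0.0367), was lost without any of the WT or E545K libraries or without H1047R replicate 3 (adjusted p = 0.0547 to 0.130), and also with upper-quartile scaling, another filter or protein-coding genes only. ADAM9 was higher in H1047R than in E545K by 0.19 ± 0.04 (adjusted p = 0.00150, and 0.167 with library totals only). ADAM8 was at 3.05 ± 0.261, 2.31 ± 0.204 and 2.07 ± 0.474 CPM, and it fell by 0.55 ± 0.15 (adjusted p = 0.00622) in H1047R. Its E545K value was −0.41 ± 0.16 (adjusted p = 0.0578), called without H1047R replicate 1 (0.00835) or 3 (0.0225), which enter the shared estimate of spread, and also without a filter (0.0157) or with the compared genotypes alone (0.00272). ADAM12, known for shedding HB-EGF, was at 2.81 ± 0.213, 3.19 ± 0.411 and 2.14 ± 0.135 CPM, and it fell by 0.39 ± 0.12 (adjusted p = 0.00977, and 0.0504 without WT replicate 3) in H1047R. Against E545K the H1047R value was −0.57 ± 0.11 (adjusted p = 0.000601).

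The ADAMTS genes had rises and falls in each comparison, in H1047R against WT at close to the shares of all tested genes. Of 13 tested, 4 rose and 2 fell in E545K, 3 rose and 4 fell in H1047R against WT, and 3 rose and 5 fell in H1047R against E545K, beside 17.7% and 18.9%, 27.4% and 28.1%, and 25.9% and 27.3% of all tested genes. ADAMTS14, which removes the amino-terminal propeptide of fibrillar procollagens (chromosome 10, 70672506 to 70762441), had 0.854, 1.09 and 0.997 CPM in the WT libraries, 2.58, 2.40 and 3.21 in the E545K and 8.18, 10.4 and 11.9 in the H1047R libraries. No genotypes overlapped. ADAMTS14 rose by 1.48 ± 0.17 (adjusted p = 4.85e-06) in E545K and by 3.38 ± 0.16 (adjusted p = 1.20e-10) in H1047R, which are 2.80-fold and 10.4-fold, and H1047R was above E545K by 1.90 ± 0.14 (adjusted p = 2.55e-08). The related procollagen protease ADAMTS3 was at 0.204 to 0.306 CPM in the 3 genotype means and was not called.

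ADAMTS6, a protease known to act on fibrillin-rich matrix (chromosome 5, 65148738 to 65481920), had 4.07, 4.10 and 3.82 CPM in the WT libraries, 2.89, 2.75 and 2.69 in the E545K and 0.659, 0.596 and 0.582 in the H1047R libraries. No genotypes overlapped, and the step from E545K to H1047R was the larger one. ADAMTS6 fell by 0.52 ± 0.10 (adjusted p = 0.00101) in E545K and by 2.71 ± 0.11 (adjusted p = 2.57e-11) in H1047R, with −2.19 ± 0.11 (adjusted p = 3.91e-10) between the knock-in genotypes. ADAMTS10, its closest relative in the family, had 0 to 12 counts per library and was not tested.

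Among the proteoglycan-cutting members, ADAMTS9 rose in both knock-in genotypes. ADAMTS9, which cuts versican and aggrecan (chromosome 3, 64515654 to 64688000), had 1.67, 1.70 and 1.47 CPM in the WT libraries, 2.56, 3.61 and 3.02 in the E545K and 4.20, 3.95 and 4.24 in the H1047R libraries. No genotypes overlapped, and it rose by 0.92 ± 0.13 (adjusted p = 4.94e-05) in E545K and by 1.35 ± 0.12 (adjusted p = 2.57e-07) in H1047R, with 0.44 ± 0.12 (adjusted p = 0.00604) between them. ADAMTS15, another versican-cutting member, had 1.60, 1.55 and 1.33 CPM in the WT libraries, 2.80, 3.11 and 2.53 in the E545K and 1.41, 1.24 and 0.620 in the H1047R libraries. All E545K libraries were above the rest, and the WT and H1047R libraries overlapped. ADAMTS15 rose by 0.91 ± 0.24 (adjusted p = 0.00697) in E545K and was −1.37 ± 0.23 (adjusted p = 0.000132) in H1047R against E545K. Its H1047R value against WT was −0.46 ± 0.23 (adjusted p = 0.112), and −0.68 (adjusted p = 0.0113) without H1047R replicate 1 and −0.42 (adjusted p = 0.0316) without a filter. The aggrecanase ADAMTS4 was at 0.226 ± 0.0222, 0.174 ± 0.0337 and 0.0755 ± 0.0160 CPM, and it fell by 1.56 ± 0.42 (adjusted p = 0.00582) in H1047R. Its difference of −1.19 ± 0.43 from E545K (adjusted p = 0.0287) was lost without E545K replicate 1 or 2 or H1047R replicate 1 (adjusted p = 0.0576 to 0.110), and also without a filter or with the compared genotypes alone. ADAMTS1 and ADAMTS5 stayed under 0.3 CPM in each library and were not called.

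ADAMTS13, the protease of von Willebrand factor, was at 3.13 ± 0.204, 3.09 ± 0.238 and 5.45 ± 0.767 CPM, and it rose by 0.80 ± 0.11 (adjusted p = 1.78e-05) in H1047R. It was above E545K there by 0.82 ± 0.11 (adjusted p = 1.51e-05). ADAMTS7, known for cutting cartilage oligomeric matrix protein, was at 23.3 ± 0.444, 28.8 ± 1.46 and 21.5 ± 3.07 CPM and rose by 0.31 ± 0.08 (adjusted p = 0.00776) in E545K. Its H1047R value was −0.12 ± 0.08 (adjusted p = 0.241), and −0.22 (adjusted p = 0.00629) without H1047R replicate 3. ADAMTS7 was −0.42 ± 0.08 in H1047R against E545K (adjusted p = 0.000377). ADAMTS12, its closest relative, was at 0.793 ± 0.137, 0.395 ± 0.0287 and 0.254 ± 0.0893 CPM. It fell by 1.66 ± 0.28 (adjusted p = 0.000155) in H1047R and by 1.01 ± 0.29 (adjusted p = 0.0136, and 0.0678 without WT replicate 1) in E545K. The 61 tested genes within 5 Mb of ADAMTS12 had medians of −0.31 and −0.29 in those comparisons. Around ADAMTS16, also on chromosome 5, the 63 tested genes had medians of −0.48 in H1047R and −0.31 in E545K. ADAMTS16 and ADAMTS17 lay under 0.4 CPM in every library. ADAMTS16 fell by 2.19 ± 0.85 (adjusted p = 0.0414) in H1047R, a call lost without any WT library or without H1047R replicate 2 or 3 (adjusted p = 0.0577 to 0.154). Its counts were 11, 16 and 12 in the WT, 12, 0 and 0 in the E545K and 12, 14 and 12 in the H1047R libraries. The fall in H1047R therefore rests on the larger totals of those libraries. ADAMTS17 was −1.77 ± 0.54 in H1047R against E545K (adjusted p = 0.0125), with −2.65 without H1047R replicate 1 and an adjusted p of 0.0531 without E545K replicate 1.

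Genes that act around these enzymes were read from lists. The background shares were 17.7% higher and 18.9% lower in E545K, and 27.4% higher and 28.1% lower in H1047R against WT. Of 15 tested genes for activating proteases and the plasminogen system, 5 rose and 8 fell in E545K, and 3 rose and 11 fell in H1047R against WT (medians −0.20 and −0.50). SERPINB2, an inhibitor of urokinase, rose by 2.93 ± 0.25 (adjusted p = 1.04e-07) in H1047R, and PLAT, the tissue plasminogen activator, fell by 1.64 ± 0.11 (adjusted p = 7.88e-09). SERPINE2 (protease nexin-1) rose by 1.10 ± 0.19 (adjusted p = 0.000261) in E545K. Of 14 genes for other inhibitors and partners, 3 rose and 6 fell in E545K, and 3 rose and 9 fell in H1047R (medians −0.02 and −0.32). TSPAN15, a tetraspanin partner of ADAM10, rose by 0.57 ± 0.13 (adjusted p = 0.00370) in E545K and fell by 1.5 ± 0.14 (adjusted p = 2.01e-07) in H1047R. Its level was 3.29 ± 0.160, 4.86 ± 0.129 and 1.15 ± 0.259 CPM, while ADAM10 itself was not called.

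RNA of substrates was measured in 2 lists. Of all tested genes, 17.7% rose and 18.9% fell in E545K, and 27.4% rose and 28.1% fell in H1047R against WT. Of 21 tested matrix genes, 5 rose and 6 fell in E545K, and 6 rose and 15 fell in H1047R against WT (medians −0.13 and −1.27). Of the 23 listed, 7 had means under 1 CPM in every genotype. The falls in H1047R include such weak genes, namely COL1A2, COL3A1, COL5A1, ELN and ACAN, at 0.0858 to 0.345 CPM in WT. Fibronectin (FN1), a substrate of many MMPs, fell by 2.50 ± 0.08 (adjusted p = 9.38e-12) in E545K and by 4.88 ± 0.09 (adjusted p = 7.63e-15) in H1047R, from 599 ± 14.6 CPM in WT. Versican (VCAN), a substrate of ADAMTS9 and ADAMTS15, fell by 4.03 ± 0.39 (adjusted p = 1.16e-06) in E545K and was at 0 to 0.0154 CPM in H1047R. The RNA of ADAMTS9 was higher in both knock-in genotypes. That of ADAMTS15 was higher in E545K and was not called in H1047R against WT. No link between the levels of VCAN and these proteases was tested. Biglycan (BGN) fell by 1.75 ± 0.23 (adjusted p = 2.91e-05) in E545K and rose by 3.30 ± 0.17 (adjusted p = 3.44e-10) in H1047R. Of 16 tested membrane substrates of sheddases, 4 rose and 3 fell in E545K, and 11 rose and 4 fell in H1047R (medians 0.01 and 0.24). The EGF receptor ligand AREG, released by ADAM17, rose by 3.47 ± 0.15 (adjusted p = 1.81e-10) in E545K and by 0.63 ± 0.15 (adjusted p = 0.00216) in H1047R, while ADAM17 was not called.

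A list of 13 genes held AP-1 and ETS factors, which several MMP promoters are known to bind, and RUNX2, which is in neither family. Of the 13, 5 rose and 5 fell in E545K, and 6 rose and 6 fell in H1047R. Of all tested genes, 17.7% rose and 18.9% fell in E545K, and 27.4% rose and 28.1% fell in H1047R against WT. FOSL1, an AP-1 subunit, was at 4.88 ± 0.440 CPM in WT, 31.8 ± 1.18 in E545K and 8.53 ± 0.796 in H1047R. No link between its level and that of MMP7 was tested. RUNX2, a transcription factor of bone formation listed with them, fell by 1.74 ± 0.18 (adjusted p = 1.78e-06) in E545K and by 4.41 ± 0.19 (adjusted p = 6.55e-11) in H1047R. Of 20 tested relatives outside the 42 genes, 3 rose and 5 fell in E545K, and 5 rose and 7 fell in H1047R (medians −0.38 and −0.31). PAPLN (papilin), an ADAMTS-like matrix protein, fell by 1.39 ± 0.08 (adjusted p = 2.21e-09) in E545K and rose by 0.91 ± 0.07 (adjusted p = 2.64e-08) in H1047R. THSD4 (ADAMTSL6), a fibrillin-binding relative, fell by 0.43 ± 0.07 (adjusted p = 0.000268) in E545K and by 1.63 ± 0.07 (adjusted p = 9.33e-11) in H1047R. Larger changes in H1047R against WT were those of ADAM22 (−2.25 ± 0.27, adjusted p = 4.32e-06) and ADAMTSL3 (1.97 ± 0.21, adjusted p = 1.60e-06). Their highest genotype means were 1.17 CPM in WT for ADAM22 and 1.48 CPM in H1047R for ADAMTSL3.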

How the data were processed

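RNA was sequenced after ribosomal RNA depletion, as paired 150 bp reads, per the labels' protocols. The deposited values are whole-number gene counts in 2 tables, for which featureCounts 2.0.0 was run on hg38 alignments and GENCODE 32, per the file headers. Reads were counted for each gene whose exons they overlapped, without strand and with each mate by itself, per the file headers, so overlapping and antisense genes share reads. The submitters' processing notes list STAR, SAMtools 1.5, cutadapt, Trim Galore 0.4.0 and FastQC. All count columns were used, and no alignment setting is given in the sources used here.

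Gene IDs were matched without version to GENCODE 44 symbols (60295 of 60609). Counts were tested with edgeR 4.0.16 (R 4.3.3), filterByExpr, TMM and 1 quasi-likelihood model over 9 libraries, with Benjamini-Hochberg adjustment, after the procedure was tested on simulated data. The pass mark of that check was lowered after its first result. The simulation gave all libraries 1 biological coefficient of variation (0.118) and changed genes in E545K only. It therefore did not check the unequal spreads or the H1047R comparisons. Approximate SEs are the log2 fold change divided by the square root of F. CPM and RPKM were computed from the deposited counts. A count of 0 allows 3 counts, or 0.0220 to 0.0315 CPM in WT and E545K libraries, for counting error only.

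Genes, lists and tests were chosen with earlier results of these data known. Per-library values were given for genes called at 2-fold or more with a mean of at least 1 CPM in a genotype, for the TIMP genes, and, after values were seen, for MMP14 and MMP15. From each list, at most 4 called genes were named, which were not in every list those with the largest changes. Alternatives covered scaling, filters, DESeq2 1.42.0, genes and libraries in the fit, a replicate block and leaving out each library. Fold changes under alternatives were limited, after a first look, to genes at 1 CPM or more in a genotype and to called values of weaker genes.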

Additional observations from a re-analysis of the deposited data

Results flagged for a closer look

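MMP15 was singled out because its 2 knock-in genotypes were called in opposite directions against WT and the direct test of their difference also passed, with a log2 difference of 0.65 between H1047R and E545K (edgeR quasi-likelihood, adjusted p = 2.32e-07). All 3 E545K libraries were below, and all 3 H1047R libraries above, the 3 WT libraries. All of its calls held under the alternatives tried.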

How the results depend on the processing

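Numbers of called genes, rises and falls together, stayed within 1.5 times of the reported ones in all alternatives with 2 exceptions. With the stricter filter (at least 1 CPM in every library of a genotype), which left 26 of the 42 genes, calls of at least 2-fold numbered 7 in H1047R against WT (reported 11) and 5 in H1047R against E545K (reported 8). Over the alternatives without left-out libraries, called genes numbered 19 to 24, 21 to 27 and 19 to 25 in E545K against WT, H1047R against WT and H1047R against E545K, and 18 to 21, 22 to 28 and 19 to 25 when 1 library was left out. Scaling by library totals moved the median of all genes from 0.00 to 0.10 in E545K against WT and from 0.02 to −0.12 in H1047R against E545K, with 7021 higher and 3608 lower calls (reported 4666 and 4998) and 4905 higher and 9870 lower (reported 6841 and 7199). DESeq2, which gave 33611 and 41769 genes an adjusted p, had medians of −0.10 in H1047R against WT and −0.13 in H1047R against E545K.

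Reversed signs occurred only in uncalled values near 0, and their cause was not tested. In H1047R against E545K, MMP19 was −0.096 with library totals and −0.070 to 0.12 with a library left out. TIMP2 was 0.031 with upper-quartile scaling, 0.030 without a filter, 0.011 with the stricter filter, 0.050 with protein-coding genes and −0.052 to 0.048 with a library left out. ADAM8 was −0.30 to 0.019 with a library left out, and ADAM17 was −0.047 with library totals. ADAM10 was 0.044 with upper-quartile scaling, 0.043 without a filter, 0.024 with the stricter filter, 0.00035 with the genotypes compared alone, 0.063 with protein-coding genes and −0.041 to 0.061 with a library left out. In E545K against WT, library totals gave ADAM10 0.041, ADAM17 0.063 and ADAMTS13 0.068, and ADAMTS13 was −0.070 to 0.036 with a library left out. In H1047R against WT, ADAM10 was 0.0021 with upper-quartile scaling, 0.015 with protein-coding genes and −0.092 to 0.0099 with a library left out.

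Replicate numbers did not pair the libraries (correlations of same-numbered deviations −0.0348 to 0.0227). With a replicate block, 21, 25 and 23 genes were called in the 3 comparisons, 4, 11 and 8 of them at 2-fold or more, and 9441, 14394 and 13731 over all genes. The block added calls of ADAM8 in E545K (−0.41, adjusted p = 0.0347) and ADAMTS15 in H1047R (−0.50, adjusted p = 0.0345) against WT and lost that of ADAM9 in H1047R (−0.11, adjusted p = 0.0504). Genes at or near 0.0315 CPM in WT or E545K are at the limit that a count of 0 allows there, so differences at that level were not detectable.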
